A study of Mus musculus with 6 samples.

Results

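The fibroblast growth factor (FGF) genes were followed in bulk RNA of mouse cerebellum at postnatal day 1. The set held every protein-coding row of the count table named *Fgf*, *Fgfr*, *Spry* or *Spred* plus a number, together with *Etv1*, *Etv4*, *Etv5*, *Dusp6*, *Il17rd*, *Fgfbp1*, *Fgfbp3*, *Frs2*, *Frs3* and *Klb*. It came to 43 of the 54532 genes in the table, 22046 of which are protein-coding. Genes entered the set by name and not by a threshold on their values, though earlier results of these data were known when it was chosen. *Fgfr1op* and *Fgfr1op2*, which only share the start of a name with the receptors, were not included. The study compared 3 libraries labelled control, from *Tox3f/f* animals without Cre, with 3 libraries labelled conditional knockout (cKO), from *Nestin-cre;Tox3f/f* animals, and both groups therefore carried the floxed allele. Nestin-Cre drives Cre recombinase in neural progenitors, so neurons, astrocytes and oligodendrocytes derive largely from cells in which it was active. The transgene itself cannot be told apart from the deletion in this comparison. The libraries were of both sexes, not in balance between the groups. The controls were littermates, and the labels do not say whether a library held the RNA of a single animal.

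FGFs are secreted proteins that bind receptor tyrosine kinases of the Fgfr family with heparan sulfate as a cofactor. The activated receptor signals through the adaptor Frs2 to the RAS and ERK kinases, and ERK activity in turn induces transcription factors of the ETS group (Etv1, Etv4 and Etv5) and inhibitors of the same cascade (Sprouty, Spred and Dusp6 proteins and Il17rd), which is why these genes are widely used as a readout of the pathway. In the embryo, Fgf8 from the isthmic organizer at the boundary of midbrain and hindbrain patterns the cerebellum.

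Total counts on genes lay between 15391854 and 17178478 per library, and levels are given as CPM, in which each count is divided by its library's TMM-normalized size. The limit of detection, taken as 3 counts, was no higher than 0.195 CPM in any library. Y-chromosome genes summed to 253, 0 and 0.128 CPM in control libraries 1, 2 and 3. In cKO libraries 1, 2 and 3 they summed to 203, 0 and 207 CPM, so sex partly went with the group. The count of *Tox3*, summed over the whole gene, was 987, 968 and 1003 for the control label and 959, 970 and 951 for the cKO label. This is −0.11 on the log2 scale (standard error 0.06, adjusted p = 0.252, edgeR). The labels were therefore not checked by it, and directions are those of the libraries as labelled. *Atoh1*, the transcription factor of granule neuron progenitors (GNPs), had 501, 491 and 481 counts against 10, 4 and 4. Of the marker lists compared, that of GNPs had 9 of 10 genes called lower and summed to between 1676 and 1773 CPM in the control libraries and between 788 and 796 in the cKO libraries, and differentiated granule neurons had 4 of 7 tested genes lower and 1 higher. Markers of Purkinje cells (5 of 8 called higher), oligodendrocytes (5 of 8), Bergmann glia and astrocytes (3 of 8), meninges (2 of 8) and microglia (1 of 8) were called in the other direction. Over all tested genes, 3.63% were called lower and 3.03% higher. Another of the 8 oligodendrocyte markers was lower, with an adjusted p under 0.01 (edgeR) but without being called. None of the 8 endothelial genes and of the 5 tested erythrocyte genes was called, where 1 of the 13 had an unadjusted p under 0.05 (37.1% of all tested genes did). Of the 8 choroid plexus markers, *Otx2* was called lower, while the other 7 had positive log2 fold changes without being called (median of the 8, 0.91). The sum of the choroid plexus markers ranged from 38.6 to 779 CPM among the cKO libraries. The part that these shifts in composition have in the results on FGF genes was not tested, and in bulk RNA fewer cells of a type and less RNA per cell cannot be told apart.

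For 4 genes on which the results turn, the sequence upstream of the gene start is shown so that it can be read beside their values: a receptor that was higher (*Fgfr3*), a receptor that was lower (*Fgfr4*), and a ligand and an ETS factor that were lower (*Fgf5* and *Etv5*). The sequences were taken from RefSeq (GRCm38.p6) and end before the first annotated base of the gene, at chr5:33721474-33721673 (plus strand) for *Fgfr3*, chr13:55152568-55152639 (plus) for *Fgfr4*, chr5:98253934-98254183 (plus) for *Fgf5* and chr16:22439720-22439820 (minus) for *Etv5*. Capitals mark E-boxes (CAGCTG or CAGATG), the kind of site that Atoh1 binds, and the core of the site of ETS factors (CCGGAA), each searched on both strands.
Fgfr3: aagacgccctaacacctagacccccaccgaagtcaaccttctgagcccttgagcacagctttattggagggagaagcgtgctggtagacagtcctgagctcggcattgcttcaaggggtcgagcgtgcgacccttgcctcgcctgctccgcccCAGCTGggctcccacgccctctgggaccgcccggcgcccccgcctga
Fgfr4: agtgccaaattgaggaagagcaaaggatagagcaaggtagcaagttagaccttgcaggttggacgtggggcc
Fgf5: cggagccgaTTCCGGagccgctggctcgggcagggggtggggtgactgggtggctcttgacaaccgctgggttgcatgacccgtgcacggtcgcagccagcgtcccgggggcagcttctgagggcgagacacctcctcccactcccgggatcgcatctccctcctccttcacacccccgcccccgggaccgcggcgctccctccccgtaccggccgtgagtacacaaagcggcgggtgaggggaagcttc
Etv5: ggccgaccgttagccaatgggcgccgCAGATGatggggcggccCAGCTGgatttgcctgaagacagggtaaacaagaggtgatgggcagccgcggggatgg

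RefSeq windows from 250 bases before to 50 bases after a start were found for 33 of the 43 genes, 42 windows in all, and 8 of the 9 genes called below had one. CAGCTG occurred in 7 of the 42 windows (16.7%) and in 16.3% of all 32851 windows, CAGATG in 6 (14.3% against 17.2%) and CCGGAA in 5 (11.9% against 14.9%). Of the genes called, *Etv5* held both forms of the E-box, *Fgfr3* held CAGCTG, *Fgfr2* held CAGATG, and *Fgf5* and *Fgfr4* held CCGGAA, which in *Fgfr4* lies beyond the stretch printed. *Spry1*, *Fgfbp1* and *Fgf9*, also called, held none of these motifs, and *Fgf8* was the called gene without a window. Most carriers were not called. CAGCTG was also in *Fgf11*, *Fgf13*, *Fgf14*, *Fgf21* and *Fgf22*, CAGATG in *Etv1*, *Fgf6*, *Fgf10* and *Fgf14*, and CCGGAA in *Fgf12*, *Frs2* and *Spry2*. None of these was called, and *Fgf6* and *Fgf21* had too few counts to be tested. These matches describe the letters only, since binding was not measured in these libraries.

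Of the 43 genes, 36 had enough counts to be tested and 7 did not. A gene was called where the adjusted p lay under 0.01 and the log2 fold change was beyond 0.5 in either direction, the study's own thresholds, with p-values from edgeR's quasi-likelihood test and Benjamini-Hochberg adjustment over all genes tested. In the libraries labelled cKO, 6 of the 36 were called lower (16.7%, where 3.63% of all 17505 tested genes were) and 3 were called higher (8.33%, where 3.03% of all genes were). The genes called lower were the ligands *Fgf8*, *Fgf5* and *Fgf9*, the receptor *Fgfr4*, the inhibitor *Spry1* and the ETS factor *Etv5*, and those called higher were the receptors *Fgfr2* and *Fgfr3* and the binding protein *Fgfbp1*. *Fgf8* had enough counts to be tested through the control libraries alone. Where 10 counts were required in every library, it dropped out, and 5 of 33 FGF genes were called lower and 3 higher. With the adjusted p alone, 8 of the 36 were lower and 4 were higher, where 7.24% and 6.55% of all genes were. The values of the 3 cKO libraries lay wholly below those of the 3 controls in 15 of the 36 and wholly above them in 10, where 20.1% and 20.5% of all tested genes separated in these ways. The 36 log2 fold changes had a median of 0.02, whether *Fgf8* was entered at its fitted value or at the limit of detection, and those of all genes had a median of −0.01.

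**Figure D1:**
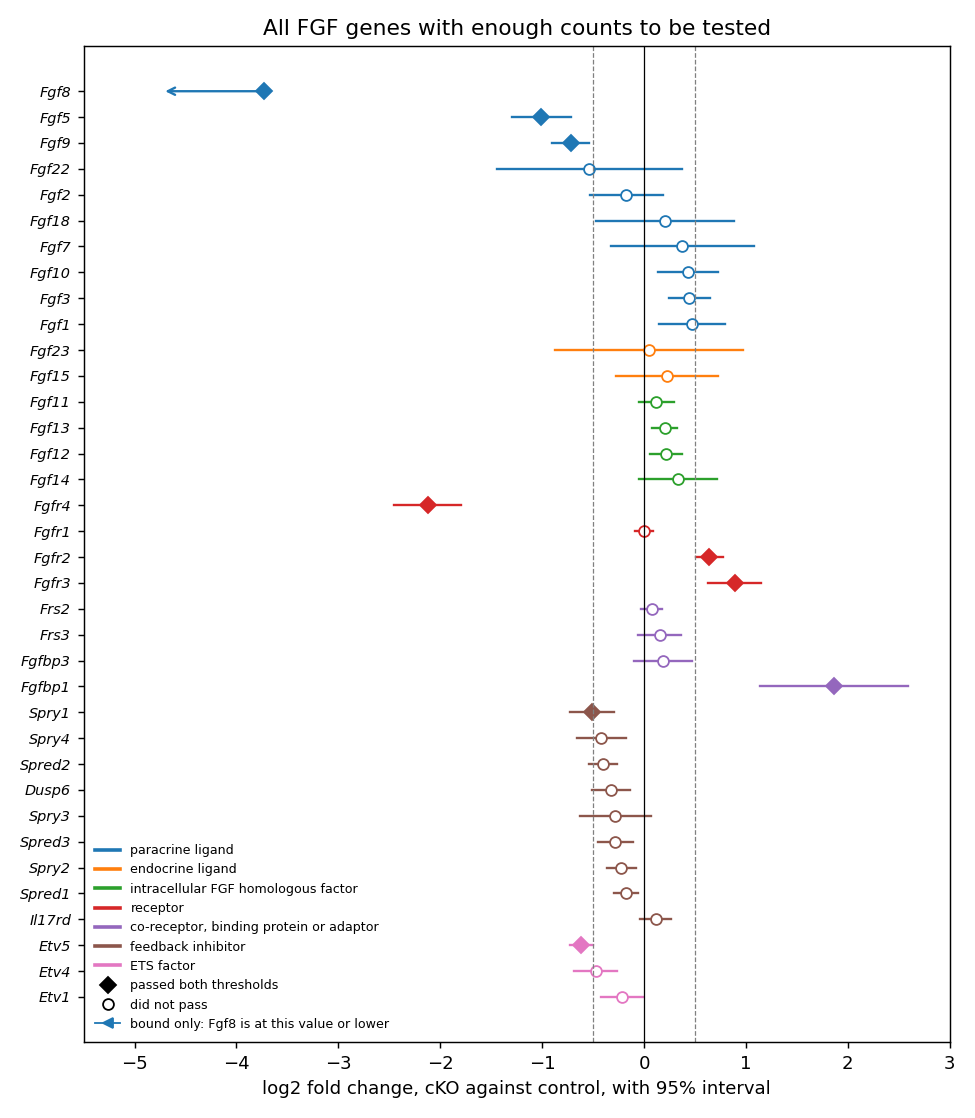
Log2 fold change (x axis, libraries labelled cKO against control, n = 3 each) of the 36 FGF genes tested, grouped by role in colour, with 95% intervals from edgeR as bars, filled diamonds for genes past both thresholds and dashed lines at the fold change threshold. Ligands and receptors lie on both sides of 0, while 11 of the 12 inhibitors and ETS factors lie below it, and *Fgf8* is drawn at its bound of −3.73 with an arrow.

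Of the ligands that act between cells, 10 of 15 were tested, of which 3 were called lower and none higher, while 6 of the 10 had an unadjusted p under 0.05 in edgeR, as did 37.1% of all genes tested. *Fgf8* (ENSMUSG00000025219, chromosome 19, 45736798 to 45742915 of GRCm38) had 50, 33 and 31 counts in the control libraries and 1, 0 and 0 in the cKO libraries. The groups were far apart, but the cKO value was under the limit of detection, so only a bound is known, at least 13.3-fold lower against 3 counts per library (adjusted p = 1.33e-04, edgeR). Even in the controls its level was low, at 2.46 ± 0.688 CPM (SD, n = 3). It was tested only because of its counts in the controls, and its p-value is to be read with this limit.

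*Fgf5* (ENSMUSG00000029337, chromosome 5, 98254184 to 98277030), best known as an inhibitor of hair growth, was counted at 20.2, 23.9 and 17.1 CPM in control and at 10.7, 9.82 and 9.95 CPM in cKO libraries. The control libraries differed among themselves more than the cKO libraries did, and the lowest control was still above the highest cKO library. The level fell 2.01-fold, or by 1.01 on the log2 scale (standard error 0.13, adjusted p = 5.01e-04, edgeR). *Fgf9* (ENSMUSG00000021974, chromosome 14, 58070547 to 58112720), a ligand to which Bergmann glia respond, was counted at 26.4, 28.3 and 29.3 CPM against 17 CPM in each cKO library. All 3 cKO libraries lay below every control, a 1.65-fold difference (log2 fold change −0.72, standard error 0.08, adjusted p = 2.28e-04, edgeR). The summed FPKM of the 15 ligands, a level per gene length, went from 28.3 ± 0.628 to 23.5 ± 0.824 (SD, n = 3). An exact permutation test of the 20 ways to split the libraries gave a two-sided p = 0.1, the smallest that 3 libraries against 3 allow.

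Other ligands had higher values in the libraries labelled cKO and passed at most one of the thresholds. *Fgf3* (chromosome 7, 144838083 to 144844436), required for inner ear development, was counted at 14.0, 13.3 and 14.1 CPM in control and at 19.1, 19.5 and 17.8 CPM in cKO libraries, without overlap. On the log2 scale the difference was 0.44 (standard error 0.09, adjusted p = 0.00540, edgeR), short of 0.5. *Fgf1* went from 6.21 ± 0.830 to 8.62 ± 0.410 CPM and *Fgf10*, a mesenchymal ligand of limb and lung, from 7.57 ± 0.670 to 10.2 ± 1.03 CPM (SD, n = 3), again without overlap. Their adjusted p-values of 0.0377 and 0.0395 (edgeR) did not pass. *Fgf2* was counted at 7.21, 6.95 and 7.37 against 5.64, 5.72 and 7.71 CPM, and *Fgf7*, *Fgf18* and *Fgf22* lay between 0.390 and 2.24 CPM in every library. For *Fgf2*, *Fgf7*, *Fgf18* and *Fgf22*, the groups overlapped, and the 95% intervals of the log2 fold change ran from −0.53 to 0.18, from −0.33 to 1.07, from −0.47 to 0.89 and from −1.45 to 0.37. *Fgf2* shares 640 exonic bases with *Nudt6* on the other strand and *Fgf22* shares 82 with *Rnf126*, which is counted at 1337 reads per library against 12.7 for *Fgf22*, and whether reads were counted by strand is not given in the sources used here. *Fgf4*, *Fgf6* and *Fgf20* had no more than 3 counts in any library and *Fgf16* no more than 4. *Fgf17*, a close relative of *Fgf8*, had 5, 4 and 15 counts against 13, 7 and 10, too few to be tested.

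Of the hormone-like FGFs, which act at a distance with a Klotho co-receptor, *Fgf15* was counted at 4.74, 2.99 and 3.78 CPM in control and at 5.30, 3.64 and 4.48 CPM in cKO libraries. *Fgf23*, the regulator of phosphate, had 16, 7 and 11 against 14, 12 and 11 counts. Both overlapped between the groups, with 95% intervals of the log2 fold change from −0.28 to 0.72 and from −0.88 to 0.97. *Fgf15* shares 761 exonic bases with *Gm26793* on the other strand. *Fgf21* had at most 2 counts, and *Klb*, which encodes the co-receptor beta-Klotho, at most 8. Among the 4 intracellular FGF homologous factors, which are not secreted and bind voltage-gated sodium channels, none was called, and all 4 log2 fold changes were positive, between 0.12 and 0.33. *Fgf13* went from 63.5 ± 1.14 to 73.1 ± 2.40 CPM and *Fgf12* from 48.1 ± 2.51 to 55.8 ± 2.93 CPM (SD, n = 3), both without overlap (adjusted p = 0.0225 and 0.0521, edgeR). *Fgf11* also separated, at 24.6 ± 1.10 and 26.7 ± 0.637 CPM (SD, n = 3). *Fgf14*, in which mutations cause a spinocerebellar ataxia, overlapped between the groups, at 14.0, 18.8 and 16.2 against 18.0, 26.6 and 17.3 CPM. The *Fgf14* difference of 0.33 on the log2 scale was 0.12 without cKO 2. An unadjusted p under 0.05 was reached by 2 of these 4 genes in edgeR, beside 37.1% of all genes.

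The 4 receptors moved in different directions. *Fgfr4* (ENSMUSG00000005320, chromosome 13, 55152640 to 55168759) was counted at 14.0, 12.3 and 12 CPM in the control libraries and at 3.28, 2.73 and 2.74 CPM in the cKO libraries. The groups were separated by a wide gap, a 4.38-fold fall (log2 fold change −2.12, standard error 0.15, adjusted p = 1.55e-05, edgeR). *Fgfr3* (ENSMUSG00000054252, chromosome 5, 33721674 to 33737068), a receptor of astrocytes and cartilage, was counted at 18.1, 16.4 and 22.2 CPM against 34.4, 32.7 and 38.0 CPM. Each cKO library exceeded every control, a 1.85-fold rise (log2 fold change 0.89, standard error 0.12, adjusted p = 5.42e-04, edgeR). *Fgfr2* (ENSMUSG00000030849, chromosome 7, 130162451 to 133123350) rose from 41.7, 45.0 and 43.6 to 67.6, 67.8 and 67.9 CPM, again without overlap. This was a 1.56-fold rise (log2 fold change 0.64, standard error 0.06, adjusted p = 8.90e-05, edgeR). *Fgfr1*, the most abundant receptor, was counted at 240, 237 and 239 CPM against 237, 243 and 237 CPM. The groups overlapped, and the log2 fold change was 0.00 with a 95% interval from −0.09 to 0.09.

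The receptors are tied to different surroundings in the table. The annotated span of *Fgfr2* is 2961 kb and takes in many other genes, of which *Ctbp2* shares 314 exonic bases with it on the same strand, and *Fgfr3* shares 998 exonic bases with *G630022F23Rik* on the other strand, a gene with 13.2 counts per library against 432 for *Fgfr3*. *Fgfr4* overlaps no other gene of the table. Beside the rise of *Fgfr2* and *Fgfr3*, the summed level of the 8 Bergmann glia and astrocyte markers went from between 3321 and 3369 to between 4391 and 4748 CPM. Its genes with the smallest p were *Gdf10*, *Gfap* and *Aldh1l1*, with log2 fold changes of 1.18, 1.42 and 0.46. Beside the fall of *Fgfr4*, the GNP markers fell as given above. The part of either in the receptor values was not tested.

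Compared per gene length, the 4 receptors together summed to 34.4 ± 0.403 FPKM in the control libraries and 36.4 ± 0.258 FPKM in the cKO libraries (SD, n = 3). *Fgfr1* took up 69.8% ± 0.505 of this sum in control and 66.4% ± 0.964 in cKO libraries (SD, n = 3). *Fgfr2* took up 12.1% ± 0.589 and 18.0% ± 0.0733, *Fgfr3* 7.61% ± 1.12 and 13.4% ± 0.983, and *Fgfr4* 10.4% ± 0.868 and 2.26% ± 0.258 (SD, n = 3). No share overlapped between the groups (exact permutation test, two-sided, for each of the 4 shares, p = 0.1 before and after Benjamini-Hochberg adjustment, the smallest possible here). In the controls *Fgfr4* stood above *Fgfr3* without overlap, and in the cKO libraries it was the lowest of the 4.

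**Figure D2:**
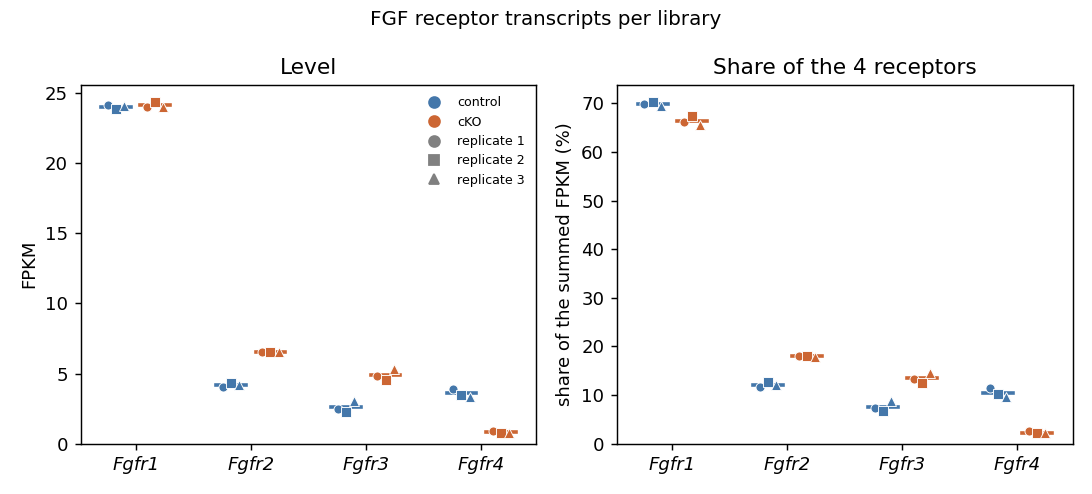
FGF receptor transcripts in each of the 3 control (blue) and 3 cKO (orange) libraries, as FPKM (left, y axis) and as a share of the sum of the 4 receptors in percent (right, y axis), with symbols for the replicates and bars for the group means. *Fgfr1* stays near 24 FPKM in every library, *Fgfr2* and *Fgfr3* are higher and *Fgfr4* is lower in the cKO libraries, where it drops from 3.58 to 0.821 FPKM on average.

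*Fgfbp1* (ENSMUSG00000048373, chromosome 5, 43978858 to 43981779) encodes a secreted carrier that releases FGFs from the extracellular matrix. It had 11, 16 and 15 counts in the control libraries and 77, 49 and 37 in the cKO libraries. The cKO libraries differed among themselves by more than the controls did, and all lay above them, a 3.65-fold rise (log2 fold change 1.86, standard error 0.32, adjusted p = 0.00251, edgeR). The call was lost without control 1, control 3 or cKO 1, with log2 fold changes of 1.72, 1.91 and 1.59 and adjusted p-values of 0.0110, 0.0120 and 0.0130. The summed meninges markers were 1056, 886 and 864 CPM in cKO libraries 1, 2 and 3 and between 717 and 748 CPM in the controls. Within this sum *Col1a2* went from 167 to 284 CPM and *Col1a1* from 97.4 to 176 CPM (means, n = 3). The meninges markers did not move together, since 3 of the 8 had a log2 fold change below 0. The endothelial markers lay between 385 and 397 CPM in the cKO and between 393 and 440 CPM in the control libraries. The part of these markers in the value of *Fgfbp1* was not tested. Its relative *Fgfbp3* overlapped between the groups, at 22.0, 16.3 and 15.9 against 21.7, 20.4 and 19.6 CPM. The adaptor *Frs2*, the main docking protein below the receptors, went from 107 ± 2.09 to 113 ± 1.01 CPM and *Frs3* from 21.7 ± 2.14 to 24.2 ± 1.0 CPM (SD, n = 3), with 95% intervals of the log2 fold change from −0.03 to 0.18 and from −0.06 to 0.36.

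**Figure D3:**
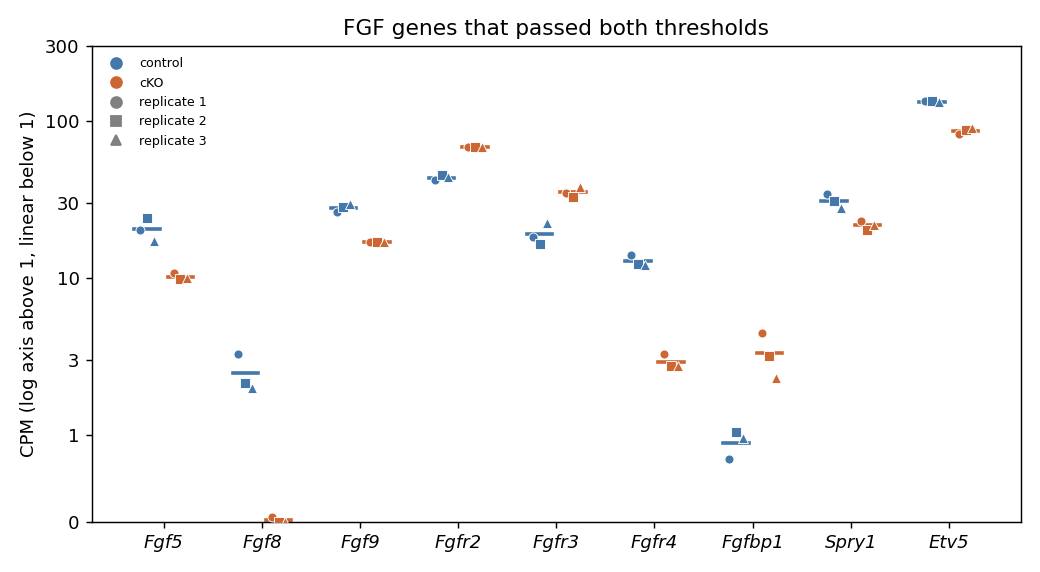
CPM (y axis, log scale above 1 and linear below 1) of the 9 FGF genes past both thresholds in each control (blue) and cKO (orange) library, with a symbol for each replicate and a bar for the group mean. In none of the 9 genes do the 3 cKO libraries overlap the 3 controls. The genes were chosen by thresholds on these same libraries, so the separation is no further support. *Fgf8* is at 0 or next to it in all cKO libraries.

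The ETS factors and inhibitors that ERK signaling induces lay lower in the libraries labelled cKO, mostly by amounts short of the threshold. Of the 12, 2 were called lower (16.7%, against the 3.63% of all genes) and none higher, and 4 had an adjusted p under 0.01 (edgeR), all of them lower, against 2 of the 12 without control 1 or without cKO 2. The cKO libraries lay wholly below the controls in 11 of the 12, the exception being *Il17rd*, where 20.1% of all tested genes did so. The median log2 fold change was −0.30, and it lay between −0.37 and −0.24 in the other fits, each of which also had 11 of the 12 below 0. *Etv5* (ENSMUSG00000013089, chromosome 16, 22381309 to 22439719), the most abundant of the FGF genes per length in the controls, was counted at 134, 133 and 131 CPM against 82.4, 87.5 and 89.4 CPM. The spread within each group was small beside the gap between them, and *Etv5* fell to 65.2% of its control level (log2 fold change −0.62, standard error 0.05, adjusted p = 3.80e-05, edgeR). *Etv4* was counted at 40.9, 39.4 and 46.6 CPM against 29.8, 27.9 and 33.5 CPM. This was 71.9% of the control level, without overlap, and the difference of −0.48 on the log2 scale (standard error 0.10, adjusted p = 0.00564, edgeR) passed the adjusted p but not the fold change threshold. *Etv4* was called without control 2 (−0.53, adjusted p = 0.00962) and without cKO 3 (−0.55, adjusted p = 0.00735, edgeR). *Etv1* was counted at 28.8, 35.8 and 30.3 CPM against 27.5, 27.2 and 26.9 CPM. The highest cKO library was just below the lowest control, at a mean of 86.0% of the control level (adjusted p = 0.122, edgeR).

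The Sprouty proteins inhibit signaling from receptor tyrosine kinases to RAS and ERK. *Spry1* (ENSMUSG00000037211, chromosome 3, 37639947 to 37644598) was counted at 34.2, 30.7 and 27.8 CPM in control and at 23.0, 20.2 and 21.8 CPM in cKO libraries. The groups did not overlap, and the value passed both thresholds narrowly (log2 fold change −0.51, standard error 0.10, adjusted p = 0.00427, edgeR). The call was lost when any library but control 3 was left out, with log2 fold changes of −0.43 without control 1, −0.52 without control 2, −0.56 without cKO 1, −0.45 without cKO 2 and −0.51 without cKO 3, and adjusted p-values between 0.0106 and 0.0192 (edgeR). *Spry1* shares 710 exonic bases with *Gm42922* on the other strand, which is counted at 13.3 reads per library. *Spry2* was counted at 50.1, 52.7 and 53.3 against 44.5, 44.9 and 44.4 CPM (85.7% of the control level, adjusted p = 0.0290) and *Spry4* at 15.7, 18.1 and 16.2 against 13.3, 12.7 and 11.3 CPM (74.8%, adjusted p = 0.0168, edgeR). *Spry3*, which the table places on the unplaced scaffold GL456233.1, was counted at 6.43, 6.69 and 6.02 against 5.41, 4.49 and 5.84 CPM, 82.2% of the control level (adjusted p = 0.227, edgeR). The groups did not overlap in any of the 4.

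Spred proteins hold back RAS together with neurofibromin. *Spred2* was counted at 83.1, 83.5 and 77.9 CPM in control and at 65.5, 59.8 and 59.8 CPM in cKO libraries. It separated fully, at 75.7% of the control level (log2 fold change −0.40, standard error 0.06, adjusted p = 0.00125, edgeR). *Spred1*, with *Spry2* among the most abundant members per length, was counted at 173, 173 and 179 against 152, 165 and 147 CPM, 88.5% of the control level (adjusted p = 0.0355, edgeR). *Spred3* was counted at 80.8, 71.0 and 75.4 against 66.6, 55.9 and 64.5 CPM, 82.3% of the control level (adjusted p = 0.0262, edgeR). Neither overlapped between the groups nor passed the adjusted p threshold. *Dusp6*, the phosphatase that inactivates ERK, was counted at 46.9, 49.7 and 47.7 against 42.8, 35.7 and 36.8 CPM, 79.9% of the control level (adjusted p = 0.0188, edgeR). *Il17rd*, an inhibitor at the membrane, was the only one of the 12 with a positive log2 fold change in edgeR (0.11, 95% interval −0.04 to 0.26). Its values of 62.2, 59.6 and 68.0 against 70.6, 69.9 and 64.7 CPM overlapped.

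**Figure D4:**
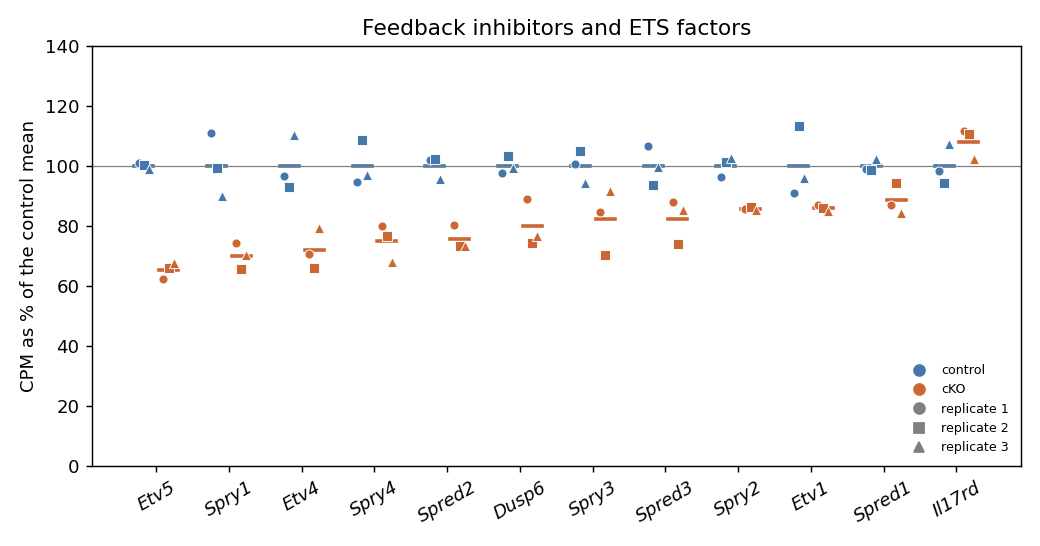
CPM of the 9 inhibitors and 3 ETS factors in each library as a percentage of the gene's control mean (y axis, starting at 0), ordered by the cKO mean, with control in blue, cKO in orange, a symbol for each replicate and a bar for each mean. The cKO means run from 65.2% for *Etv5* to 108% for *Il17rd*, and in the other 11 genes every cKO library lies below every control.

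The order of the members by level per gene length shifted accordingly. In the control libraries *Etv5* stood first with 32.1 ± 0.321 FPKM (SD, n = 3), above *Spred1* with 25.6 ± 0.502 without overlap. *Spry2* (24.8 ± 0.828) overlapped both *Spred1* above it and *Fgfr1* (24 ± 0.131) below it, while *Spred1* lay above *Fgfr1* in every control library. In the cKO libraries *Fgfr1* stood first with 24.1 ± 0.221 FPKM, overlapping *Spred1* with 22.7 ± 1.24, and *Etv5* was the fourth with 21 ± 0.845 FPKM (SD, n = 3). Among the secreted ligands, *Fgf5* was the most abundant in control with 8.10 ± 1.35 FPKM, ahead of *Fgf9* (5.98 ± 0.320) and *Fgf3* (5.89 ± 0.176), which overlapped. In cKO libraries *Fgf3* stood first with 8.05 ± 0.359, above *Fgf5* with 4.04 ± 0.194 and *Fgf9* with 3.64 ± 0.0197 FPKM (SD, n = 3).

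Most other genes of the pathway were not called. Of 25 genes of the cascade from Grb2 to ERK, all were tested and none was called in either direction, with a median log2 fold change of −0.06, while 14 of the 25 had an unadjusted p under 0.05 in edgeR, beside 37.1% of all genes. With the adjusted p alone, 3 of the 25 were lower and 3 were higher (12% each), where 7.24% and 6.55% of all genes were. The smallest p-values there were those of *Map2k1*, a kinase that activates ERK (log2 fold change 0.496, just under the threshold, adjusted p = 5.23e-04), *Gab1* (−0.33, adjusted p = 0.00198) and *Rps6ka3* (−0.40, adjusted p = 0.00207, edgeR). Of 7 tested surface partners, 1 was called higher (14.3%, where 3.03% of all genes were). This single gene was *Flrt1*, a membrane partner of FGF receptors (log2 fold change 0.51, adjusted p = 0.00726, edgeR). No partner was called higher without control 3, cKO 1 or cKO 3, while *Ncam1* at 0.37 and *Flrt3* at −0.42 were not called. Of 12 other genes that ERK induces, 1 was called lower (8.33%, where 3.63% of all genes were), and the median log2 fold change was −0.01. The gene called was *Dusp5*, also an ERK phosphatase (log2 fold change −0.71, standard error 0.10, adjusted p = 0.00110, edgeR). Of 10 tested genes of the isthmic organizer and the midbrain-hindbrain region, 2 were called lower (20%, where 3.63% of all genes were). These were *Otx2*, which is also in the list of choroid plexus markers, with a log2 fold change of −1.16 and *En1* with −1.54 (adjusted p = 1.81e-05 and 2.34e-04, edgeR). *Pax2* was at 0.46 without being called. *Kl*, the Klotho co-receptor, had 0.863 ± 0.232 CPM in control and 1.66 ± 0.499 CPM in cKO libraries (SD, n = 3; adjusted p = 0.0838, edgeR).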

How the data were processed

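mRNA of mouse cerebellum at postnatal day 1 was sequenced in 6 libraries, 3 labelled control and 3 labelled cKO, grouped by their titles. The authors deposited counts per gene, made by removing low-quality reads, aligning the rest to mm10 with HISAT2 2.0.5 and counting with featureCounts 1.5.0-p3 (versions per the submitters' processing notes). The annotation release, strand setting and handling of reads with several matches are not given in the sources used here. The authors also deposited FPKM values, computed from counts and gene length, which were used here only for levels between genes and as an alternative scale. Start and end of 41 of the 43 genes matched GENCODE M21 (GRCm38).

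The counts were tested with edgeR 4.0.16 in R 4.3.3 (low counts removed by filterByExpr, TMM scaling, then glmQLFit and glmQLFTest) over 17505 genes with Benjamini-Hochberg adjustment, with calls made for adjusted p-values under 0.01 where the log2 fold change passed 0.5 in size. DESeq2, which the study used with the same thresholds, was run as an alternative (1.42.0), as was limma-trend (limma 3.58.1) on log2(FPKM + 1) and log2(FPKM + 0.1). Standard errors and 95% intervals were derived from the quasi-likelihood F statistic. CPM values are counts scaled by TMM-normalized library totals. Limits of detection cover counting error only. The labels do not say that each library is 1 animal, so p-values measure the spread between these libraries. Same-group libraries differed by more than sampling noise (chi-square per gene between 3.63 and 10.0). The fits were tested on simulated counts.

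The FGF genes, their roles and the other lists were chosen with earlier results of these data known, and counts over them are descriptions. Every FGF gene could be named, and of the other lists *Tox3*, *Atoh1* and at most the 3 genes with the smallest p. *Anos1* and *Ahsp* from these lists had no row in the table. Further alternatives were other normalizations, filters and thresholds, each library left out, the replicate number as a block, a covariate for sex (Y-chromosome gene level), and chromosomes X and Y left out. Counting *Fgfr1op* and *Fgfr1op2* as FGF genes was chosen after seeing the data.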

Additional observations from a re-analysis of the deposited data

How the results depend on the processing

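Of 572 values of FGF genes in 16 other fits, 554 kept their direction and their side of the thresholds, and 31 of the 36 genes did so in every fit that tested them. *Spry1* also fell short with library size alone (−0.49) and on log2(FPKM + 1) and log2(FPKM + 0.1) (−0.45 and −0.50). Signs changed only in *Fgf23*, to −0.20 without control 2, −0.00301 without cKO 1 and −0.0603 with the Y-chromosome covariate, and in *Fgfr1*, to −0.00442 without control 2 and −0.00104 without cKO 2, all of them uncalled. With 1 library left out *Fgf23* lay between −0.20 and 0.38 and *Fgfr1* between −0.00442 and 0.00762. On log2(FPKM + 1), whose pseudocount understates changes of low genes, *Fgfr4* was at −1.33, *Fgf8* at −1.46 and *Fgfbp1* at 0.80. *Fgf8* was not tested where 10 counts were required in every library.

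The FGF genes called lower and higher were 13 and 7 at an adjusted p under 0.05 without a fold change threshold, between 5 and 6 and between 2 and 3 with 1 library left out, and 6 and 3 with the replicate block. For all genes no share was taken at an adjusted p under 0.05, so the 13 and 7 cannot be set against one. The replicate numbers did not pair the libraries (correlations of same-numbered deviations 0.24, 0.26 and −0.16). Of 54 tested genes in the other pathway lists, 3 were called lower and 1 higher, where 3.63% and 3.03% of all genes were. The higher count was 3 with DESeq2, 2 with DESeq2's size factors, with library size alone, without a filter and with 10 counts in every library, and 0 on both FPKM scales. With 1 library left out it lay between 0 (without control 3, cKO 1 or cKO 3) and 3 (without cKO 2) and the lower count between 3 and 5 (without cKO 2). Without a fold change threshold, 12 were lower and 9 higher at an adjusted p under 0.05, again with no share of all genes. Under 0.01 the counts were 8 and 6, where 7.24% and 6.55% of all genes passed. The receptor shares from counts per kilobase are the same by construction, since the scaling of a library cancels within a share, so they are no check on the shares or on the gene lengths. Depth limits *Fgf8* to a bound and leaves 7 genes untested.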

Other observations

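Some FGF genes lie next to each other in the genome. *Fgf3*, *Fgf4* and *Fgf15* follow each other on chromosome 7 with gaps of 2.93 and 31.3 kb and no protein-coding gene between them. Their values differed: *Fgf3* was at 5.89 ± 0.176 FPKM in the control and 8.05 ± 0.359 FPKM in the cKO libraries (SD, n = 3), *Fgf4* had a single count in 1 of the 6 libraries, and *Fgf15* was at 1.25 ± 0.284 and 1.46 ± 0.276 FPKM (SD, n = 3). Whether the changes of *Fgf3* and *Fgf15* differ was not tested. *Fgf2* and *Spry1* lie 230 kb apart on chromosome 3, and *Fgf1* and *Spry4* 237 kb apart on chromosome 18. In both pairs the inhibitor separated fully between the groups with lower values in cKO libraries, at 70.1% of the control level for *Spry1* and 74.8% for *Spry4*. This is not particular to these pairs, since 8 of the 9 inhibitors separated in this way, as did 20.1% of all tested genes. *Fgf2* overlapped and *Fgf1* had higher values in all cKO libraries.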
